A study of Mus musculus with 3 samples.

Results

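The 40 genes described here belong to interferon signalling and the antiviral response. They were taken by symbol from a list that spans the interferon receptors, the kinases and transcription factors below them, the sensors of foreign nucleic acid and the effectors that interferon induces. Their m6A sites were the predicted sites lying inside the gene span on the same strand, placed on the transcript with the longest coding sequence (CDS). This gave 104 of the 19301 sites on the list, in 24 of the 40 genes, while 16 genes held none. The sites come from miCLIP2 on poly(A)+ RNA of RAW264.7 cells, an established macrophage line from a BALB/c mouse, which were untreated, with 3 biological replicates of this 1 condition. In miCLIP2 an antibody against m6A is crosslinked to RNA with UV light, and the positions at which reverse transcription stops mark the bound nucleotides. The authors scored the crosslink peaks at A with the m6Aboost classifier and deposited 1 list pooled over the replicates, with a score between 0.5 and 1 for each site. The score is the confidence of the model and not the fraction of transcripts that are methylated. The list has no read counts, so the depth behind a site, its spread over replicates and the expression of its gene are unknown, and no test over replicates was possible. Among macrophage genes looked up as a check of the cell type, Csf1r, Spi1 and Lyz2 had sites, which shows that their transcripts were present, and Cd68, Adgre1 and Itgam were without one.

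Interferons act through paired receptor chains that carry Janus kinases. For type I interferon these are Ifnar1 and Ifnar2 with Tyk2 and Jak1, and for interferon gamma Ifngr1 and Ifngr2 with Jak1 and Jak2. The kinases phosphorylate STAT proteins, and complexes such as that of Stat2 and Irf9 switch on the interferon-stimulated genes, whose products block viral entry, translation, replication and release. In macrophages the same genes are reached from sensors such as RIG-I (Ddx58), MDA5 (Ifih1) and STING (Tmem173). N6-methyladenosine is deposited by the Mettl3-Mettl14 complex mainly in DRACH motifs (D is A, G or T; R is A or G; H is A, C or T) of long internal exons, of last exons and around stop codons.

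The sequences of the sites with the highest scores show the motifs on which the calls in these genes rest. They are the 21 nt centred on the site, read from the GRCm38 genome on the strand of the gene, with the 5-nt motif in capitals and the predicted A as its central base. Scores of 0.9 or more were given to 10 sites, found in 8 genes. All 10 were at DRACH motifs and 5 of them at GGACT, of which Ifnar2 held 3. At these scores 99.0% of the sites in all protein-coding genes were at DRACH and 39.3% at GGACT, the latter inside the interval of 23.7 to 76.3% for the interferon genes. CDS or 3′ UTR names the region that holds the site.
Parp14 3′ UTR, score 0.944, chr16:35833125-35833145, minus strand: actggcagAGACTgtggcttg
Adar CDS, score 0.943, chr3:89751134-89751154, plus strand: gaggaaaaGAACTtttacctc
Ifnar2 CDS, score 0.938, chr16:91404327-91404347, plus strand: ggatctatGGACTgaagatgg
Ifnar2 CDS, score 0.936, chr16:91403879-91403899, plus strand: ccatgcatGGACTgacgggca
Ifngr1 CDS, score 0.932, chr10:19609291-19609311, plus strand: aacaggaaGAACTttcaaaag
Jak1 3′ UTR, score 0.927, chr4:101153171-101153191, minus strand: atagcaaaGGACTgtgccgct
Isg15 CDS, score 0.923, chr4:156199836-156199856, minus strand: gtggtacaGAACTgcagcgag
Eif2ak2 3′ UTR, score 0.910, chr17:78854816-78854836, minus strand: atgaggaaGGACTctggcttt
Irf9 3′ UTR, score 0.910, chr14:55609045-55609065, plus strand: atggaaatAGACTtgttctcc
Ifnar2 3′ UTR, score 0.901, chr16:91404784-91404804, plus strand: gttcaggaGGACTccaggaat

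For the other genes among the 10 with most sites, the site with the highest score shows how the strongest call of each gene compares with these.
Zc3hav1 CDS, score 0.891, chr6:38354138-38354158, minus strand: ccctggagGAACTgctgggtg
Irf8 3′ UTR, score 0.883, chr8:120755253-120755273, plus strand: gagccctcTGACTggggtggg
Parp9 CDS, score 0.869, chr16:35964210-35964230, plus strand: catttcagAGACTgtcagtcc
Ifnar1 3′ UTR, score 0.861, chr16:91505443-91505463, plus strand: gaggagacAGACTtatctgaa
Oas3 CDS, score 0.856, chr5:120769309-120769329, minus strand: tcacccaaAGACTgtccagga
Dtx3l CDS, score 0.778, chr16:35932865-35932885, minus strand: gcagctgaGGACAgaagttct

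The 4 sites outside DRACH motifs are shown because they depart from the canonical motif. They had scores of 0.511 to 0.630, below the median of 0.754 over all 104 sites, and those in Ifngr1 and Eif2ak2 were both at GGATG.
Adar 3′ UTR, score 0.630, chr3:89752234-89752254, plus strand: tagtaaatGTACTttcattct
Zc3hav1 CDS, score 0.579, chr6:38332607-38332627, minus strand: aagaaatgATACTatctagca
Ifngr1 CDS, score 0.515, chr10:19609614-19609634, plus strand: gtgcttgtGGATGttgggggg
Eif2ak2 3′ UTR, score 0.511, chr17:78854826-78854846, minus strand: agccaactGGATGaggaagga

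Sites were present in 60% of the interferon genes (24 of 40, 95% Wilson interval 44.6 to 73.7%). Over all 22033 protein-coding genes of the annotation, polymorphic pseudogenes included, 23.1% had a site. This background counts genes that macrophages do not express, for which the list holds no information, so the higher share of the interferon genes was not read as a property of the pathway. The median number of sites was 3 in the interferon genes that had any, and also 3 in all such protein-coding genes. At least 5 sites were found in 7 interferon genes, 17.5% (8.75 to 31.9%), against a background of 6.96%, and a site with a score of at least 0.9 in 8 genes, 20% (10.5 to 34.8%), against 6.19%. The intervals cover counting error only, and sites or genes are not replicates.

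**Figure D1:**
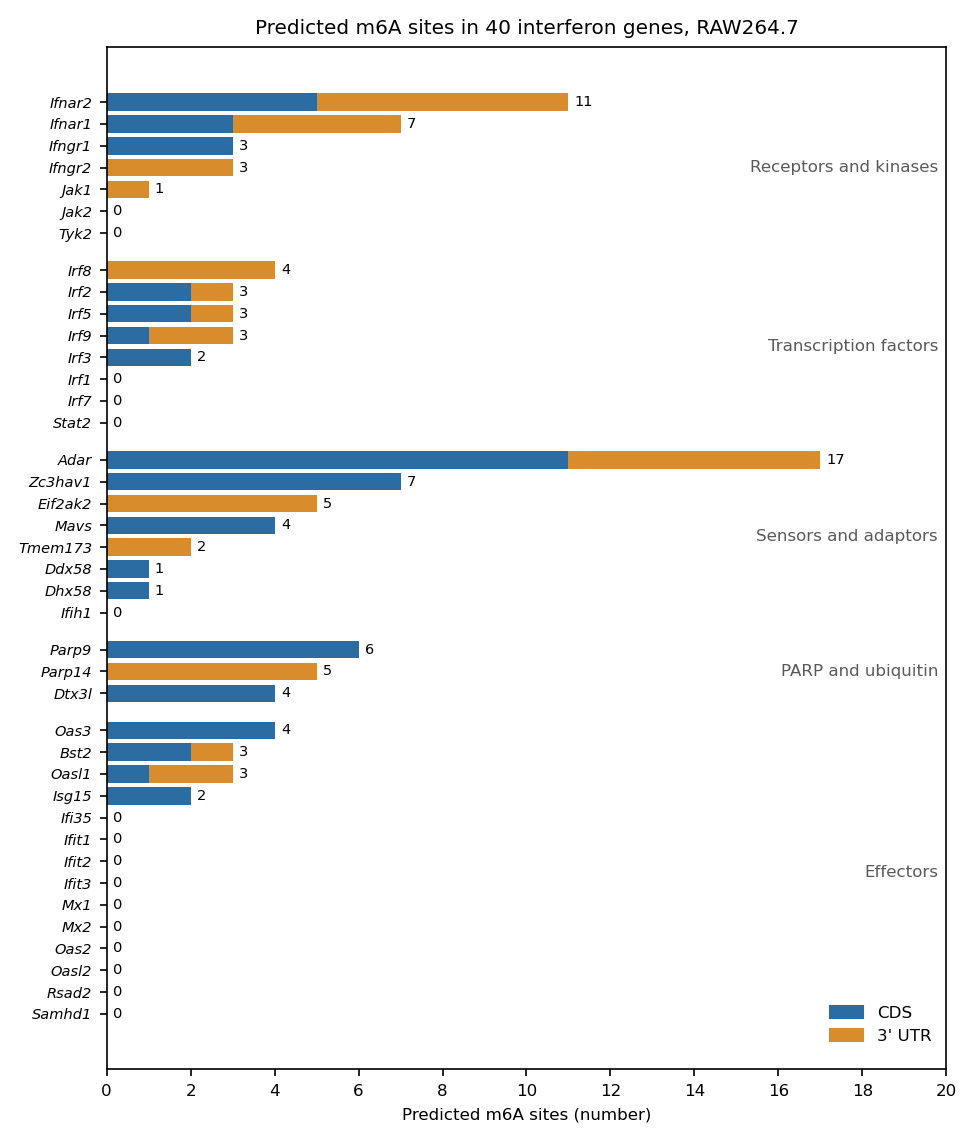
Number of predicted m6A sites (x axis) in each of the 40 interferon genes (y axis, grouped by role), with sites in the CDS in blue and in the 3′ UTR in orange. Adar had 17 sites and Ifnar2 11, while 10 of the 14 effector genes had 0.

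By role, sites were found in 5 of 7 receptor and kinase genes, 5 of 8 transcription factor genes, 7 of 8 genes for sensors, adaptors and RNA-binding regulators, and all 3 genes of the PARP and ubiquitin group. Of the 14 antiviral effector genes, 4 had a site, 28.6% (11.7 to 54.6%), an interval that holds the 23.1% of all protein-coding genes. The intervals of the roles overlap (35.9 to 91.8% for receptors and kinases, 30.6 to 86.3% for transcription factors and 52.9 to 97.8% for sensors and adaptors), and differences between roles were not tested. Taken over the spliced transcripts, the effectors had 0.311 sites per kb and the sensors and adaptors 1.15 sites per kb, beside 0.272 over all protein-coding genes and 1.02 over those with a site. Of the 835 DRACH A of the effectors, 1.44% (0.824 to 2.50%) were listed as sites, against 4.91% (3.53 to 6.78%) of 693 in the sensors and adaptors and 3.83% (2.59 to 5.64%) of 626 in the receptors and kinases. Over all protein-coding genes the share was 1.22%, inside the interval of the effectors. Single genes held much of these values. Without Adar the sensors and adaptors had 0.758 sites per kb and 3.15% (2.00 to 4.93%) of DRACH A listed, and without Ifnar2 the receptors and kinases had 2.36% (1.38 to 3.99%). Because expression is not in the list, absence of the methyl mark and low abundance of the transcript cannot be told apart for a gene without a site.

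The receptor chains held 24 of the 25 sites of the receptors and kinases. Ifnar2, a chain of the type I interferon receptor, had 11 sites with scores of 0.601 to 0.938 and a median of 0.838. All 11 lay in its last exon of 1880 nt, of which 5 were coding and 6 belonged to the 3′ UTR, and they spread from -523 to 891 nt on the spliced transcript relative to the stop codon, where negative positions are upstream. They made up 14.9% of the 74 DRACH A of the transcript. All 11 also lay inside the span of Gm21970, an annotated gene on the same strand. Ifnar1, the partner chain, had 7 sites with scores of 0.628 to 0.861, all in its last exon of 2387 nt. Of these, 4 lay between -84 and 42 nt from the stop codon, and the site with a score of 0.628 was the A of the TGA stop codon itself. The other 3 lay 1172, 1328 and 1786 nt downstream, so that the sites of Ifnar1 formed a group at the stop codon and a distal group.

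The interferon gamma receptor chains each had 3 sites, again in the last exon, but in different regions. Those of Ifngr1, the ligand-binding chain, lay in the CDS at -385, -62 and -28 nt from the stop codon, with scores of 0.932, 0.515 and 0.855. Those of Ifngr2 lay in the 3′ UTR at 1, 74 and 294 nt downstream, with scores of 0.715, 0.813 and 0.651. Among the kinases, Jak1, which serves both receptors, had a single site with a score of 0.927, located 314 nt into the 3′ UTR. Jak2 and Tyk2 had none, although their spliced transcripts hold 114 and 94 DRACH A, against 129 in Jak1.

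The transcription factors with sites were Irf2, Irf3, Irf5, Irf8 and Irf9, with 15 sites in all. Irf8, which directs the development of macrophages and dendritic cells, had 4 sites at 88, 337, 570 and 632 nt into its 3′ UTR, with scores of 0.883, 0.815, 0.825 and 0.575. All 4 lay inside the span of Gm20388 as well. Irf9, the DNA-binding partner of Stat2, had sites with scores of 0.642, 0.910 and 0.737, the strongest 24 nt after the stop codon. Irf2, a repressor of interferon responses, had 2 sites in the CDS, at -119 and -36 nt from the stop codon, and 1 in the 3′ UTR, with scores of 0.655, 0.698 and 0.781. Irf5, which activates inflammatory genes below Toll-like receptors, had 3 sites with scores of 0.806, 0.755 and 0.649, of which the first 2 lay in internal exon 7 of 393 nt. Irf3, which induces interferon beta, had 2 sites in the CDS with scores of 0.545 and 0.711. No site was listed in Irf1, Irf7 or Stat2, with 51, 36 and 100 DRACH A.

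Adar, the enzyme that deaminates adenosine to inosine in double-stranded RNA, had the most sites of the 40 genes. Its 17 sites had scores of 0.508 to 0.943. By number of sites it ranked 39th among the 5081 protein-coding genes with a site, of which 1.18% had at least as many. They fell into 2 blocks. Exon 2, an internal exon of 1432 nt, held 8 sites between -3310 and -2392 nt from the stop codon. The last exon of 2518 nt held the other 9, of which 4 lay between -116 and 133 nt from the stop codon and 5 between 1069 and 1744 nt downstream. No site was found in the exons between. The site with the highest score of Adar, 0.943, lay at -29 nt from the stop codon, and that with 0.861 was in the last sense codon. Adar produces a long isoform that is induced by interferon and a shorter one that starts at a downstream codon. The first 4 sites of exon 2 lay in the CDS of the transcript used here and in the 5′ UTR of another annotated transcript.

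The remaining sensors and regulators carried their sites either in the CDS or in the 3′ UTR. Zc3hav1, which binds CpG-rich viral RNA, had 7 sites in the CDS with scores of 0.568 to 0.891 and a median of 0.585, the lowest median of the 24 genes. The strongest lay in exon 1, and 5 lay in internal exon 4 of 1047 nt, while the last exon of 2171 nt held 50 DRACH A and no site. Eif2ak2 encodes PKR, the kinase that halts translation on binding double-stranded RNA. Its 5 sites lay 303 to 771 nt into the 3′ UTR with scores of 0.511, 0.910, 0.817, 0.567 and 0.773, and the first of them, at GGATG, was 10 nt upstream of the second. Mavs, the mitochondrial adaptor of RIG-I and MDA5, had 4 sites in the CDS part of its last exon, spaced by 5, 33 and 68 nt, with scores of 0.558, 0.751, 0.828 and 0.545. Tmem173, which encodes STING, had 2 sites in the 3′ UTR, with a score of 0.843 at 9 nt and of 0.619 at 279 nt after the stop codon. Ddx58, which encodes RIG-I, had 1 site with a score of 0.897 at -173 nt from the stop codon. Dhx58, a regulator of both RNA sensors, had 1 site of score 0.756 in internal exon 3. Ifih1 had no site among 125 DRACH A, the largest number of DRACH A in a gene without a site.

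Parp9 and Dtx3l form a complex of an ADP-ribosyltransferase and a ubiquitin ligase, and their genes lie head to head on chromosome 16 on opposite strands. Both carried their sites in the CDS far from the stop codon. Parp9 had 6 sites with scores of 0.580 to 0.869, 5 of them in internal exon 4 of 854 nt, where the last 3 were 26 and 21 nt apart. Dtx3l had 4 sites with scores of 0.766, 0.705, 0.633 and 0.778, all in internal exon 3 of 1524 nt, and none in its last exon of 2858 nt with 64 DRACH A. The neighbouring Parp14, another ADP-ribosyltransferase of the family, showed the opposite arrangement. Its 5 sites lay in the 3′ UTR, between 212 and 1511 nt after the stop codon, with scores of 0.675 to 0.944. Internal exon 6 of Parp14, which is 2282 nt long, held 46 DRACH A and no site.

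The effectors with sites were Oas3, Oasl1, Bst2 and Isg15, with 12 sites in all, each at a DRACH motif. Oas3, which makes the oligoadenylates that activate RNase L, had 4 sites in the CDS between -2275 and -605 nt from the stop codon, with scores of 0.560, 0.856, 0.531 and 0.814. Oasl1, a related protein without this activity, had 3 sites in its last exon at -59, 165 and 236 nt from the stop codon, with scores of 0.664, 0.561 and 0.868. No site was listed in their relatives Oas2 and Oasl2, with 87 and 92 DRACH A. Bst2 encodes tetherin, which holds budding virus at the cell surface, and had 3 sites with scores of 0.579, 0.767 and 0.780 on a transcript of 792 nt. At 3.79 sites per kb its density was the highest of the 40 genes, and at 17.6% so was the share of its 17 DRACH A that were listed. The interval on that share is wide, at 6.19 to 41.0%. Isg15, a ubiquitin-like modifier, had 2 sites in the CDS part of its last exon, the first at -260 nt from the stop codon, with scores of 0.923 and 0.709.

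No site was found in Ifit1, Ifit2, Ifit3, Mx1, Mx2, Rsad2, Samhd1 and Ifi35, the other effectors without one beside Oas2 and Oasl2. The Ifit proteins bind foreign RNA and the Mx proteins are antiviral GTPases. The 3 Ifit genes have most of their transcript in a last exon of 1671 to 3353 nt, which held 46 DRACH A in Ifit1, 72 in Ifit2 and 37 in Ifit3. The authors kept uniquely mapping reads only. Of the 50-nt words of the Ifit3 transcript, 51.2% were also found in a transcript of another gene, mainly Ifit3b, and what this did to its sites was not tested. In Ifit1 this share was 7.13%, in Mx1 4.77% and in Mx2 6.70%, and in Ifit2 and Rsad2 it was 0%.

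**Figure D2:**
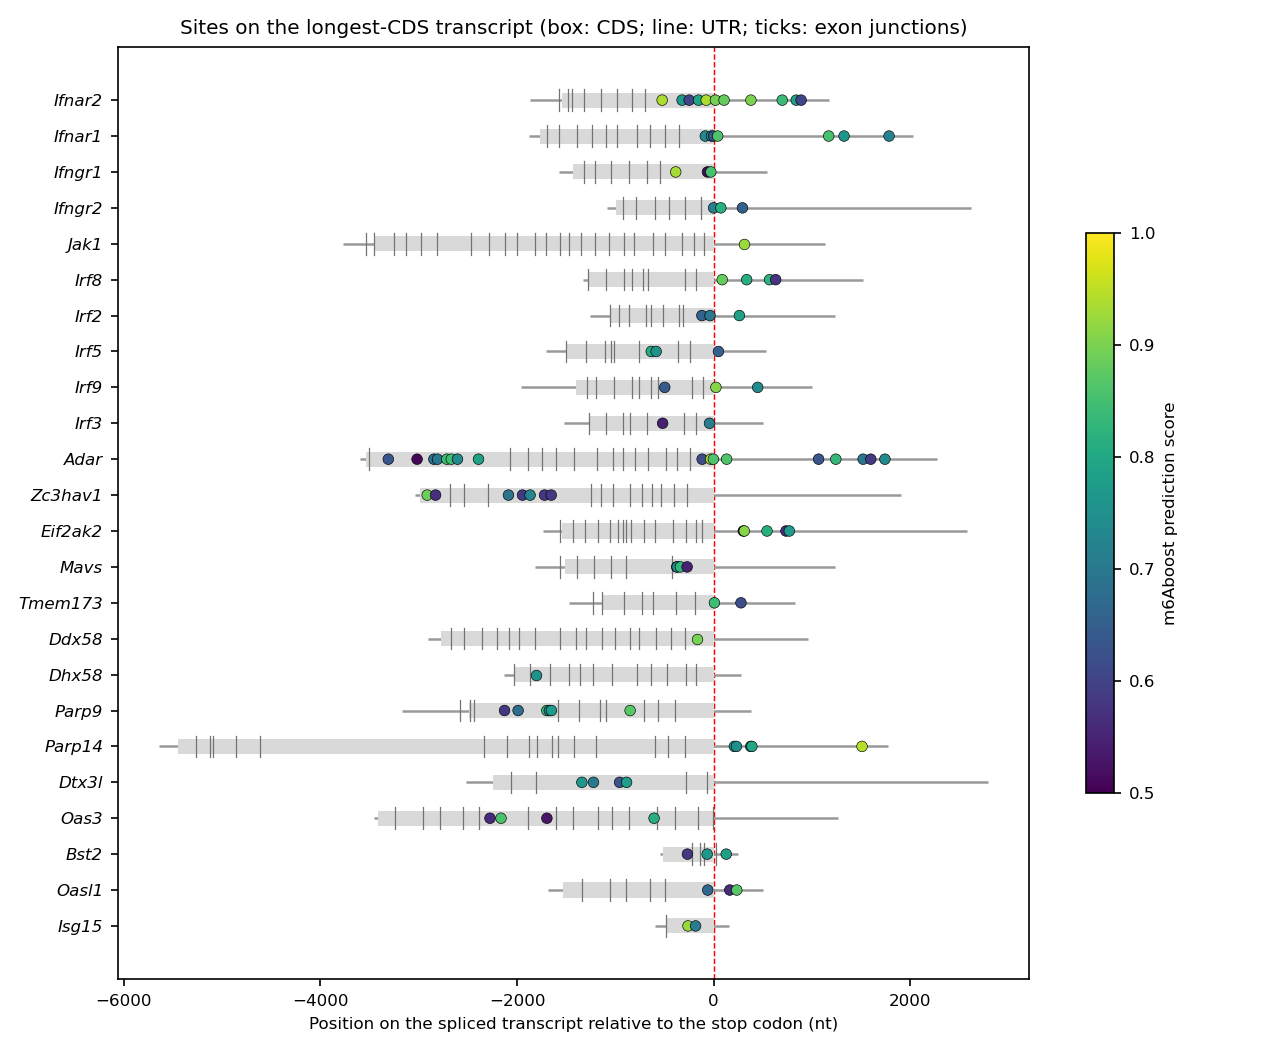
The spliced transcripts of the 24 interferon genes with a site, aligned at the stop codon (x axis, nt, with grey boxes for the CDS, lines for UTRs and ticks for exon junctions), with sites as circles coloured by prediction score. All 11 Ifnar2 sites lay after the last junction, while 5 of the 6 Parp9 sites and all 4 Dtx3l sites lay in a long internal exon.

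Over all genes with sites, 61 of the 104 sites, or 58.7% (49.0 to 67.6%), were coding, and 43, or 41.3% (32.4 to 51.0%), were in the 3′ UTR. The shares over the 19180 sites in protein-coding genes were 51.2% and 43.4%. In 10 of the 24 genes all sites were in the CDS, in 6 all were in the 3′ UTR and in 8 they were in both. Neither the 5′ UTR nor an intron of the transcripts used held a site, which allows shares of up to 3.56% each by the interval, against 2.19% and 1.45% of the sites in protein-coding genes. Isoforms matter here, since 18 sites in Ifnar1, Ifnar2, Ifngr1, Irf2, Irf3 and Mavs lay in the CDS of 1 annotated transcript and the 3′ UTR of another. If the 3′ UTR was given precedence, the shares were 41.3% (32.4 to 51.0%) for the CDS and 58.7% (49.0 to 67.6%) for the 3′ UTR. The order turned over all protein-coding genes too, to 44.1% and 52.9%, both inside these intervals. The region and the 21 nt around the A are inputs of m6Aboost, so shares by region and motif depend in part on the model.

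Near the stop codon, 29 sites in 15 genes lay within 200 nt on the spliced transcript, 27.9% (20.2 to 37.2%), and 13 sites in 10 genes within 50 nt. The share over all protein-coding genes was 32.4% (31.8 to 33.1%), inside the interval of the interferon genes. Another site lay within 100 nt of 56.7% of the sites (47.1 to 65.8%), against 60% over all protein-coding genes, also inside the interval. With a window of 50 nt the share was 27.9% (20.2 to 37.2%), and the 42.2% of all protein-coding genes was outside the interval. With 200 nt it was 74.0% (64.9 to 81.5%), and the 74.7% of all protein-coding genes was inside. Both sites of a close pair are counted, so the sites are not independent and these intervals are too narrow. The difference at 50 nt was not tested.

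The exons that held the sites were long. Last exons held 68 sites, internal exons of more than 400 nt held 24, shorter internal exons held 9 and first exons held 3. Together, last and long internal exons held 88.5% (80.9 to 93.3%), against 88.0% of the 18555 sites in exons of the transcripts of all protein-coding genes. Last exons had 42.7% of the DRACH A in the 24 genes and long internal exons 10.5%. Of the DRACH A in these genes, 12.3% (8.34 to 17.8%) were listed in long internal exons and 8.55% (6.77 to 10.8%) in last exons, but 1.25% (0.659 to 2.36%) in internal exons of up to 400 nt. Among all protein-coding genes with a site the order was the same, with 10.2%, 6.39% and 0.950%. Close to exon junctions, at less than 100 nt, 1.36% (0.764 to 2.43%) of the DRACH A of the interferon genes were listed, against 9.16% (7.50 to 11.1%) farther away. In all protein-coding genes with a site these shares were 1.40% and 6.88%. Of the 10 long internal exons in the 40 genes, 5 held sites, in Adar, Zc3hav1, Parp9, Dtx3l and Oas3. The other 5 were in Parp14, which has 2, and in Mavs, Stat2 and Irf7.

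**Figure D3:**
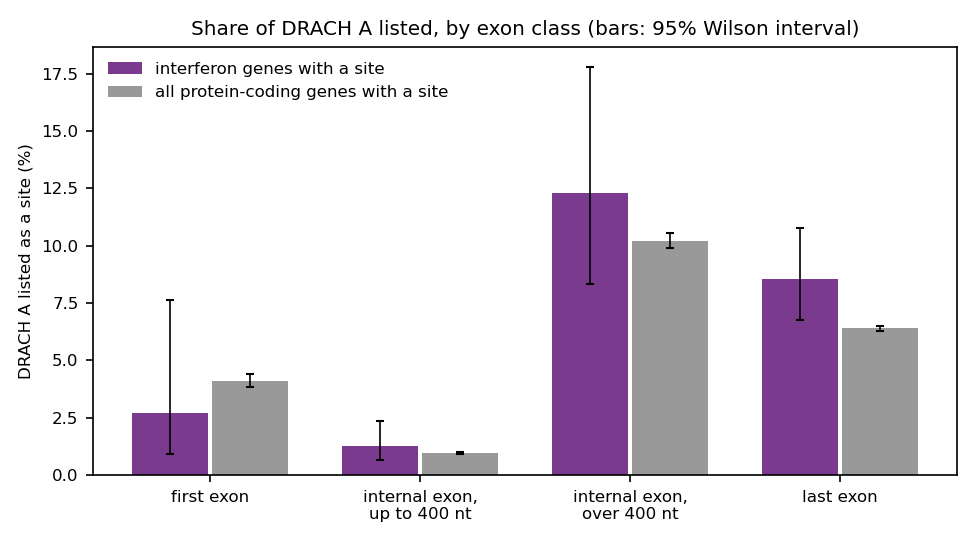
Share of DRACH A listed as a site (y axis, %) by exon class (x axis) in the 24 interferon genes with a site (purple) and in all protein-coding genes with a site (grey), with 95% Wilson intervals. The share was 1.25% in internal exons of up to 400 nt and 12.3% in longer ones for the interferon genes.

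Genes with and without sites overlapped in their number of motifs. The 16 genes without a site had 28 to 125 DRACH A with a median of 79, and the 24 genes with a site had 17 to 170 with a median of 70.5. The median length of the last exon was 1483 nt without and 1268 nt with a site. Across the 40 genes, the number of DRACH A and the number of sites had a Spearman correlation of 0.12 (n = 40 genes, which are not independent replicates), and of 0.40 over the 24 genes with a site. In the 24 genes with a site, 5.62% (4.65 to 6.79%) of 1778 DRACH A were listed. The background over all protein-coding genes with a site was 4.67%.

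**Figure D4:**
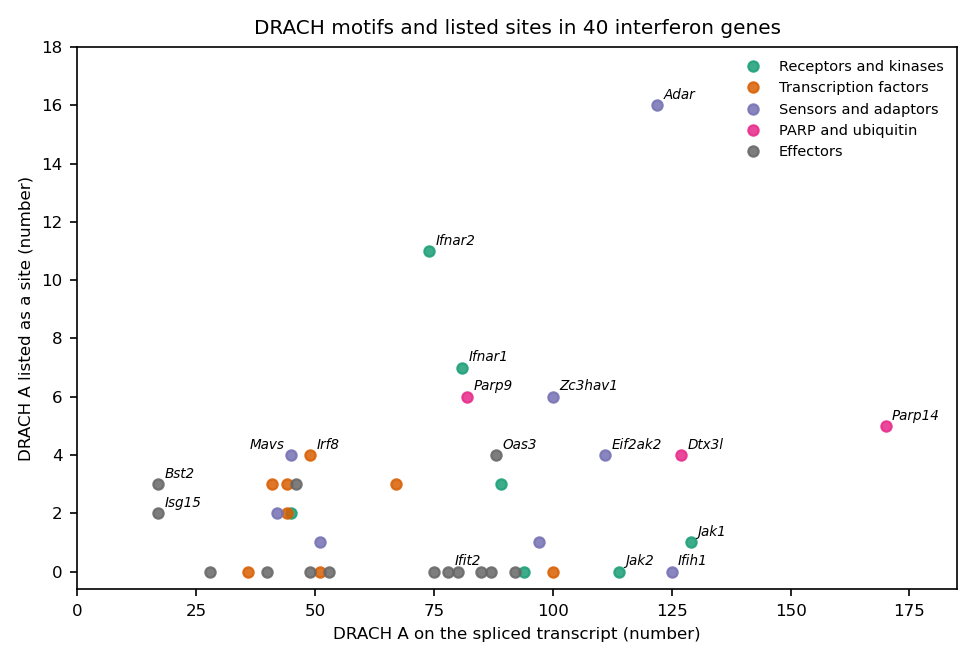
Number of DRACH A on the spliced transcript (x axis) and number of these listed as sites (y axis) for each of the 40 interferon genes, coloured by role. Genes with 0 listed sites range from 28 to 125 DRACH A, and Ifnar2 and Adar stand above the others with 11 and 16.

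DRACH motifs held 100 of the 104 sites, 96.2% (90.5 to 98.5%), against 92.0% of the sites in protein-coding genes. The most frequent motif was AGACT with 19 sites, 18.3% (12 to 26.8%), followed by GGACA with 17 and GGACT with 13. GGACT, the motif of 19.3% of the sites in protein-coding genes, had 12.5% (7.45 to 20.2%) here, and 6 of its 13 sites were in Ifnar2. AGACT had 12.3% of those sites. As all intervals of the interferon genes overlap each other for these 3 motifs, their order is not settled by the counts. In the CDS the A was the second base of its codon in 28 of 61 sites, 45.9% (34.0 to 58.3%), against 49.0% in all protein-coding genes.

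The lowest score of the 104 sites was 0.508 and the highest 0.944. Their median was 0.754 and their quartiles were 0.640 and 0.840, beside 0.734, 0.627 and 0.832 for the sites of all protein-coding genes. Coding sites had a median of 0.729 and 3′ UTR sites of 0.781, against 0.70 and 0.786 over all protein-coding genes. Among the genes with at least 3 sites, the medians ran from 0.585 in Zc3hav1 to 0.855 in Ifngr1, while the 3 scores of Ifngr1 alone ran from 0.515 to 0.932, a wider span than that between the medians.

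**Figure D5:**
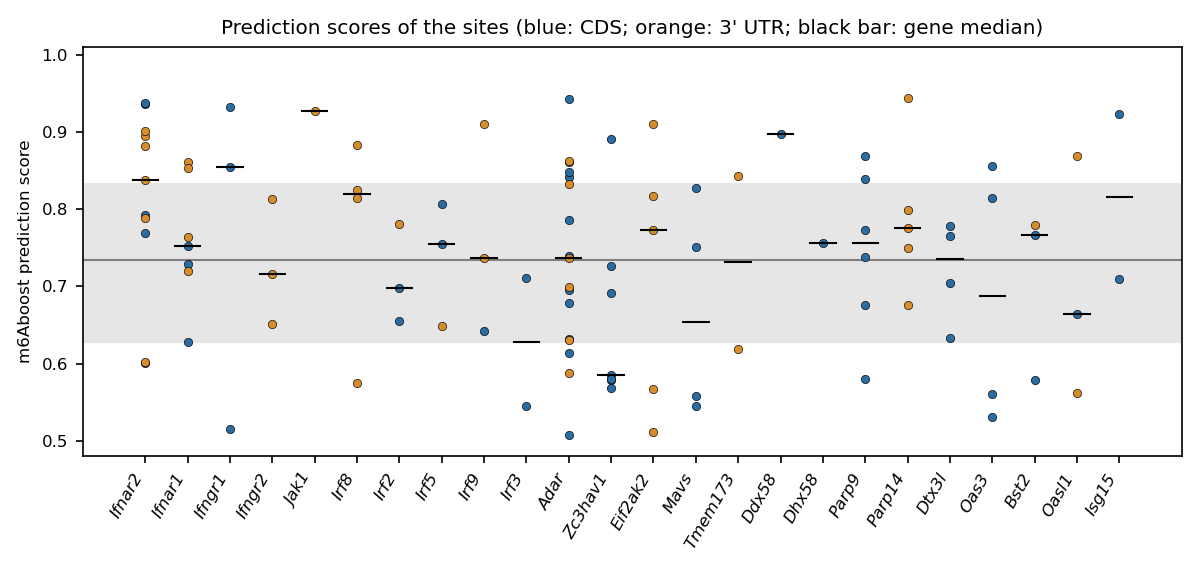
Prediction score (y axis) of each site in the 24 interferon genes with a site (x axis), in blue for the CDS and orange for the 3′ UTR, with the gene median as a black bar and the median and quartiles of all protein-coding genes as grey line and band. Ifnar2 sites had a median of 0.838 and those of Zc3hav1 of 0.585.

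Other genes of the pathway were taken from a list of 88 matched genes. Sites were found in 32 of them, 36.4% (27.1 to 46.8%). Among genes of signalling and its regulation 10 of 16 had a site, among genes that lead to interferon production 10 of 17, and among further interferon-induced effectors and antigen presentation genes 12 of 55, or 21.8% (12.9 to 34.4%). Beside the 23.1% of all protein-coding genes, the last share is near the background. The signalling genes with most sites were Irf2bpl with 13, Ep300 with 11 and Ptpn11 with 9. In the production group Tlr7, the receptor of single-stranded RNA in endosomes, had 12 sites and Ticam1, the adaptor of Tlr3, had 10. The effector group was led by the helicase genes Znfx1 and Helz2 with 19 and 15 sites, all in exons of the transcript with the longest CDS. Tapbp, which helps to load peptides on MHC class I, had 13 sites in its span, of which 2 lay in exons of that transcript.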

How the data were processed

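m6A sites were taken from the list the authors deposited for RAW264.7 cells, which holds the m6Aboost prediction score of each site. The authors mapped the reads to GRCm38.p6 with STAR (2.7.3a), kept unique alignments and removed duplicates with UMI-tools (1.0.0). PureCLIP was run per replicate on reads lacking C-to-T changes, and peaks found in 2 or more replicates were retained and, at A, scored. The start of the list was read as 0-based, and all 19301 sites then fell on A. Positions are given 1-based. Genes and transcripts came from GENCODE M21 (GRCm38), whereas the authors used M23. Motifs were read from the C57BL/6J reference, not from the genome of the line. For the whole list, a site in several protein-coding genes was given to a gene holding it in an exon, then to the longest. Mx2 is annotated as a polymorphic pseudogene. Of the names of other pathway genes, Mb21d1 had no match and its newer symbol Cgas did. Intervals are 95% Wilson intervals. The code that assigns a position to an exon, region and distance from the stop codon was checked on simulated transcripts with known answers. Python (3.11.15), NumPy (2.4.6) and SciPy (1.17.1) were used.

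The genes, roles and lists were chosen with earlier results of these data known. All 40 genes are named. The 10 genes with the largest number of sites (equal numbers ordered by median score), those with a site of at least 0.9 and the Ifit, Oas, Mx and Parp9/Dtx3l families are described in detail, as are the other genes with a site. Sequences are those of the strongest site of the first 10, of sites of at least 0.9 and of sites outside DRACH.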

Additional observations from a re-analysis of the deposited data

How the results depend on the processing

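No paired analysis was possible because there was 1 condition and the replicates share a single list, and for the same reason none could be left out. Of 68 planned recomputed values, 44 stayed within the interval of the reported value, or within 1.5 times it for counts. The order of CDS and 3′ UTR turned when the 3′ UTR was taken first in any transcript, to 41.3% and 58.7%. It also turned over all protein-coding genes, to 44.1% and 52.9%. With the transcript of longest spliced length 3.85% of sites lay in the 5′ UTR, and with the longest transcript passing the support filter 3.92%. In both cases these were the first 4 of the 8 sites in exon 2 of Adar. A minimum score of 0.7 left 66 sites, 0.486 per kb, 2.23% of DRACH A listed, a median score of 0.814, 100% at DRACH and 37.9% with another site within 100 nt. At 0.9 there were 8 genes, 10 sites, 0.0737 per kb, 0.337% of DRACH A and a median of 0.930. All protein-coding genes had 0.0235 per kb and 0.114% of DRACH A at this score. DRACH held 100% of the 10 sites and GGACT 50% (99.0% and 39.3% over all protein-coding genes). Last or long internal exons held 100%, against 96.3%. The CDS held 50% (23.7 to 76.3%), and the 23.4% over all protein-coding genes was just outside this interval. A higher minimum leaves fewer sites by its construction. Windows of 100 and 400 nt around the stop codon held 19.2% and 49.0%, beside 19.3% and 48.3% over all protein-coding genes. Windows of 50 and 200 nt for a neighbouring site gave 27.9% and 74.0%, beside 42.2% and 74.7% over all protein-coding genes. At 50 nt the share of the interferon genes was thus below that background, which lay inside the interval at 100 and 200 nt. With internal exons of over 200 nt counted as long the share was 96.2%, and RRACH held 85.6% of sites. Leaving out the gene with most sites in each role, a choice made after seeing the data, lowered the sites per kb from 1.15 to 0.758 in the sensors and adaptors (Adar) and from 0.908 to 0.572 in the receptors and kinases (Ifnar2), and moved the other roles by less than 1.5 times. Without sites in the span of another gene, 22 genes and 89 sites were left, all sites of Ifnar2 and Irf8 being lost. The depth behind a site is not in the list, and the cause of these shifts was not tested beyond what each setting removes by construction.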
